A study of Zea mays with 4 samples.

Results

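miR164 is a plant microRNA family, and the results concern all its sequences in maize (*Zea mays*) leaves with and without feeding by the fall armyworm, *Spodoptera frugiperda*. Its members were chosen by name, as every row whose microRNA name carries the family's number, with each distinct sequence used once. This gave 11 of the 500 rows and 6 of the 319 distinct sequences. Entries of equal values under names alike but for a closing number, or with one sequence lying inside the other, were merged. This left 307 entries, and miR164 still held 6. The family was picked out on its higher total in T3 than in CK3, and zma-miR164e-5p on its higher level in both fed libraries, both seen in an earlier reading of the same table. Values of fed against unfed libraries are therefore a description and carry no test.

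All 4 libraries came from leaves of plants at the 4-leaf stage. T1 was made after 1 day and T3 after 3 days of larval feeding, while CK1 and CK3 carry no treatment in their labels and are read here as the unfed controls of the same number. There was 1 library per group, and neither the maize line, the time at which unfed leaves were taken nor the number of plants behind a library is given in the sources used here. The table holds microRNAs alone, so leaf messenger RNA markers could not be looked at. Of its 500 rows, 0 carried one of the insect microRNA names searched for. This search went by name alone and cannot show whether larval RNA was present.

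MicroRNAs are cut from hairpin precursors as a duplex of a 5p and a 3p strand, one of which is kept by an Argonaute protein and guides it to messenger RNAs of matching sequence. The targets of miR164 are messenger RNAs of NAC transcription factors. In Arabidopsis these include CUC1 and CUC2, which keep growing organs apart, NAC1, which acts in auxin-dependent lateral root formation, and ORE1, which promotes leaf ageing. The RefSeq annotation of the maize assembly Zm-B73-REFERENCE-NAM-5.0 names 8 genes of the family, MIR164a to MIR164h. The deposited names give no locus for a value.

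The following 5 sequences are forms of the 5p strand that differ by a few bases, and an entry of the 3p strand. They are written 5′ to 3′ in the DNA letters of the deposited table, and capitals mark the seed, bases 2 to 8.
zma-miR164a-5p: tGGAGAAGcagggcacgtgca
zma-miR164f-5p: tGGAGAAGcagggcacgtgct
zma-miR164e-5p: tGGAGAAGcaggacacgtgag
gma-miR164a_R+3: tGGAGAAGcagggcacgtgcacca
zma-miR164b-3p_L+2: tCATGTGCccatcttctccacc

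Sequences were assigned to the 5p strand where bases 1 to 8 matched those of zma-miR164a-5p. The 4 sequences so assigned therefore share one seed by this rule. Counted from 1 at the 5′ end, with zma-miR164a-5p as the reference, zma-miR164f-5p differed by A21T alone, and zma-miR164e-5p by G13A, C20A and A21G. The entry gma-miR164a_R+3, named after soybean, was zma-miR164a-5p with 3 further bases at its 3′ end and was 24 nt long, against 21 nt for the other 5p forms. The common sequence stood in 5 rows of the table, all under the name zma-miR164a-5p and with the same values.

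Set against zma-miR164a-5p without gaps, zma-miR164b-3p_L+2 could pair at 17 of 20 facing positions, G:U pairs included. Each other 5p form gave the same 17 of 20, so the pairing does not tell which of them was its partner. The 3p entry reached 2 bases beyond the 5′ end of the 5p strand, the overhang that Dicer-like enzymes leave. With 20 facing positions, the 21-nt 5p forms lacked the same overhang at the other end.

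The deposited values are normalized signal values, and the value of 1 read was recovered from the steps between them (0.736 units in CK1 and 0.826 in CK3, against 0.303 in T1 and 0.352 in T3). By these steps the listed entries stood for 80609 to 195983 reads per library, with the fed libraries the deeper ones, and miR164 for 615 reads in CK1 and 286 in CK3, against 1239 in T1 and 1397 in T3. Nearly all values stood for at least 5 reads, so an entry listed at 0 can have been present below that. Intervals below are 95% intervals from implied reads. They cover counting error only, not the spread between plants, which was not measured, and repeated reads can come from 1 molecule, since none carried an identifier.

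The summed miR164 value was 453 normalized units in CK1 and 236 in CK3, against 375 in T1 and 492 in T3. The family thus stood lowest in the unfed library CK3, and the other unfed library lay between the fed ones. It made up 0.763% of all listed values in CK1 and 0.342% in CK3, against 0.632% in T1 and 0.824% in T3, and ranked 16th to 21st of 65 named families by its total.

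The common form, zma-miR164a-5p, carried most of this total. It was at 354 units in CK1 and 173 in CK3, against 267 in T1 and 362 in T3, and ranked 21st of 307 entries by its mean. CK3 was again the lowest library, and the fed and unfed values overlapped, with CK1 and T3 nearly equal. Its share of the family was 78.2% in CK1 (exact Clopper-Pearson interval 74.7 to 81.4), 73.4% in CK3 (67.8 to 78.4), 71.3% in T1 (68.7 to 73.8) and 73.7% in T3 (71.3 to 76.0).

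zma-miR164f-5p, which differs from the common form at the last base, was at 44.4 units in CK1 and 18.2 in CK3, against 28.7 in T1 and 41.2 in T3. Its libraries fell in nearly the same order as those of the common form. Values of the common form were not whole multiples of a read in any library, and those of zma-miR164f-5p were not in CK1 and T1 (tolerance 0.02 of a read). How reads that match both sequences were divided is not given in the sources used here, so the split between this pair is uncertain.

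zma-miR164e-5p was at 13.2 units in CK1 and 19.8 in CK3, against 40.6 in T1 and 55.6 in T3. Both fed libraries stood above both unfed ones, and the unfed library that was lowest in the common form was not the lowest here. The values stood for 18 reads in CK1 and 24 in CK3, against 134 in T1 and 158 in T3, and all 4 were whole numbers of reads. The highest value was 4.20 times the lowest, against 2.09 times for the common form.

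The 24-nt form gma-miR164a_R+3 was listed at 0 in CK1 and CK3 and at 7.27 units in T1 and 10.6 in T3. It was thus listed in the fed libraries alone, which were also the deeper ones. At the depth of CK1 these values would have stood for 9.87 and 14.4 reads, and at that of CK3 for 8.80 and 12.8, above the 5 reads at which listing usually began. Against the common form it stood at 2.72% in T1 (interval 1.73 to 4.07) and 2.92% in T3 (1.96 to 4.19), while just under 5 unlisted reads would be 1.04% in CK1 and 2.39% in CK3. The CK3 limit lies inside both fed intervals, so on this measure a difference from CK3 was not detectable at this depth.

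On the other strand, zma-miR164b-3p_L+2 was at 36.8 units in CK1 and 24.8 in CK3, against 29.1 in T1 and 19.0 in T3. T3, the highest library for the common form, was the lowest for this 3p entry. The remaining entry, zma-miR164c-3p_1ss15CT, had 4.42 units in CK1, was listed at 0 in CK3, and had 2.12 in T1 and 3.17 in T3, which stood for 6, 7 and 9 reads where it was listed. Such counts cannot show a difference between libraries.

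**Figure D1:**
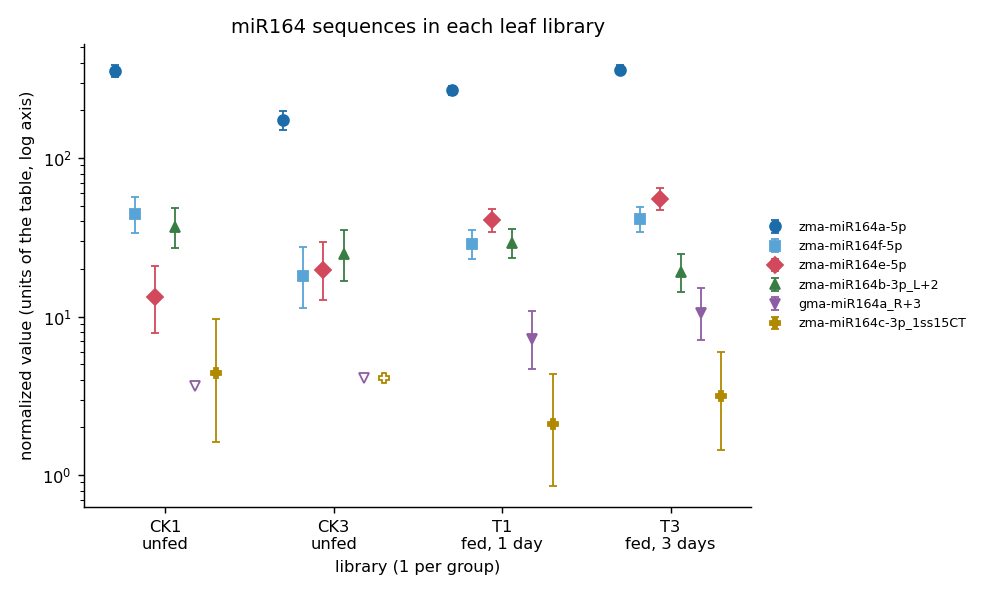
Normalized value (log axis) of the 6 miR164 sequences in each library, with 95% counting intervals from implied reads; open symbols mark entries listed at 0, drawn at the value of 5 reads. The common form is lowest in CK3 at 173 units, while zma-miR164e-5p stands at 40.6 and 55.6 units in the fed libraries and at 13.2 and 19.8 in the unfed ones.

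To compare forms without the scaling between libraries, each was set against the common form of the same library, a measure added after the values had been seen. zma-miR164e-5p stood at 3.75% of the common form in CK1 (interval 2.20 to 5.98), 11.5% in CK3 (7.19 to 17.6), 15.2% in T1 (12.6 to 18.2) and 15.4% in T3 (12.9 to 18.2). CK1 lay below the other 3 libraries with no overlap of intervals, whereas the interval of the unfed library CK3 overlapped those of both fed libraries. On this measure the fed libraries were therefore not set apart from CK3.

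zma-miR164f-5p stayed between 10.5% and 12.6% of the common form in all 4 libraries, with overlapping intervals. The split of reads between this pair is uncertain, as given above, and the intervals do not cover that. zma-miR164b-3p_L+2 stood at 10.4% in CK1 (7.61 to 13.9), 14.3% in CK3 (9.45 to 21.1), 10.9% in T1 (8.71 to 13.4) and 5.25% in T3 (3.92 to 6.90). The T3 interval lay below those of the other 3 libraries. The summed 3p entries likewise made 4.72% of the summed 5p entries in T3, against 9.07% in T1 and 11.7% in CK3, with CK1 between the latter.

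**Figure D2:**
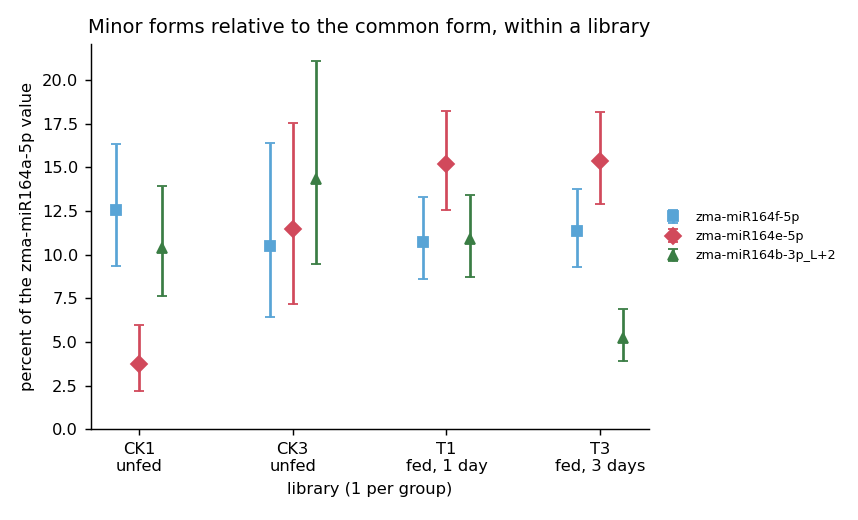
Value of 3 minor miR164 forms as a percent of the zma-miR164a-5p value in the same library, with 95% counting intervals. zma-miR164e-5p is at 3.75% in CK1 and between 11.5% and 15.4% elsewhere, zma-miR164f-5p stays near one level, and zma-miR164b-3p_L+2 is lowest in T3 at 5.25%. The split of reads between zma-miR164f-5p and zma-miR164a-5p is uncertain.

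Differences between libraries are given as log2(value + 1), which understates the difference of low entries, and an entry counts as past 2-fold where that difference is at least 1 and the higher library has at least 10 units. These are sizes, not tests. In T1 against CK1, 1 of the 4 members with at least 10 units was past 2-fold, against 26.4% of the 159 entries compared, and nothing is read from this count because the choice of members used these values. That member was zma-miR164e-5p, with a log2 difference of 1.54, the 11th highest of the 159, and a ratio of 3.06 (interval 1.87 to 5.33). The common form stood at -0.40 on that scale, zma-miR164f-5p at -0.61 and zma-miR164b-3p_L+2 at -0.33, and the family total at -0.27.

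In T3 against CK3, 4 of the 5 members with at least 10 units were more than 2-fold higher, against a background of 45.7% of 173 entries past 2-fold in either direction, of which 44 were higher. The log2 difference was 1.06 for the common form, 1.14 for zma-miR164f-5p, 1.44 for zma-miR164e-5p and 1.06 for the family total. The ratio was 2.09 for the common form (interval 1.81 to 2.45) and 2.81 for zma-miR164e-5p (1.82 to 4.51). The 24-nt form, listed at 0 in CK3 and over 10 units in T3 alone, was the remaining one past 2-fold, and zma-miR164b-3p_L+2 stood at -0.37. The median over the 5 members was 1.14, and over all entries compared it was 0.09. Nothing is read from this median or count, because the family was chosen on its higher total in T3 than in CK3.

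Against the unfed library of the other number the picture changed for the common form. T3 and CK1 differed by 0.03 in the common form and by -0.11 in zma-miR164f-5p, and T1 stood 0.62 above CK3 in the common form and 0.63 in zma-miR164f-5p. zma-miR164e-5p stood 1.99 above CK1 in T3 and 0.998 above CK3 in T1, where it fell just short of 2-fold. Of the members with at least 10 units, 2 of 5 were past 2-fold in T3 against CK1, namely zma-miR164e-5p and the 24-nt form, and 0 of 4 in T1 against CK3. The background was 27.7% and 39.2%, each of 166 entries. Nothing is read from these counts, because zma-miR164e-5p was chosen as higher in both fed libraries. The 24-nt form was compared with CK1 only through its value in T3. These comparisons share their libraries with those above and are no independent repeats.

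The unfed libraries differed from each other in the common form by nearly as much as T3 did from CK3. In CK3 against CK1 the log2 difference was -1.03 for zma-miR164a-5p, -1.24 for zma-miR164f-5p and -0.55 for zma-miR164b-3p_L+2, and it was 0.55 for zma-miR164e-5p, whose ratio had an interval of 0.779 to 2.93, with 1 inside it. Of 4 members compared, 2 were past 2-fold, both lower in CK3, against 48.6% of 175 entries in either direction. The family total stood at -0.94.

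Between the fed libraries no member was past 2-fold, 0 of 5, against 16.5% of 158 entries. The 5p forms were all higher at day 3, by 0.44 for zma-miR164a-5p, 0.51 for zma-miR164f-5p, 0.45 for zma-miR164e-5p and 0.48 for the 24-nt form, while zma-miR164b-3p_L+2 stood at -0.59. The ratio of the common form was 1.35 (interval 1.24 to 1.48) and that of zma-miR164b-3p_L+2 0.654 (0.460 to 0.922), so these entries of opposite strands differed in opposite directions beyond counting error. For the 24-nt form, with 24 reads in T1 and 30 in T3, the interval of the ratio was 0.822 to 2.60, with 1 inside it. The other 3p entry, zma-miR164c-3p_1ss15CT, with 7 and 9 reads, had an interval of 0.495 to 4.72 that spans both directions. Whether this exceeds the spread between plants cannot be told from 1 library per day.

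Over all 4 libraries, 2 of the 5 members that reached 10 units in any library had both fed values above both unfed ones, zma-miR164e-5p and the 24-nt form, against 17.7% of 192 entries. Nothing is read from this count because zma-miR164e-5p was chosen on this pattern and the 24-nt form reached 10 units in T3 alone. No member had both fed values below both unfed ones, against 9.9% of entries. The fed libraries were also more than 2 times as deep as the unfed ones, and the part of depth in these patterns was not tested. The value of zma-miR164e-5p stood for 18 reads in CK1 and 24 in CK3, against 134 in T1 and 158 in T3.

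**Figure D3:**
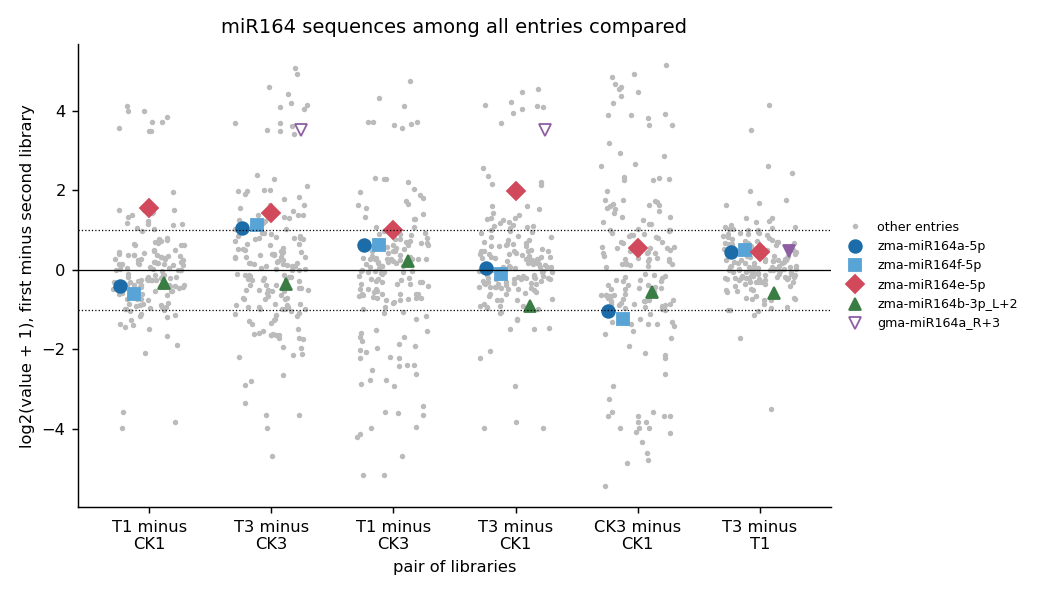
Difference in log2(value + 1) between the named libraries for every entry with at least 10 units in either (grey) and for the miR164 sequences (coloured; open where 1 library is listed at 0). Dotted lines mark 2-fold; zma-miR164e-5p is above 0 in all 6 pairs, while the common form ranges from -1.03 for CK3 minus CK1 to 1.06 for T3 minus CK3.

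The entries outside the family most like zma-miR164a-5p were found by the root mean square difference between centred log2(value + 1) profiles over the 4 libraries, among 96 entries with at least 10 units in each. They were zma-miR160f-5p_R-1 at 0.103, zma-miR159a-3p at 0.107 and bdi-MIR169a-p5_2ss8TC17TC at 0.109. The miR160 family targets auxin response factors and the miR159 family MYB factors. The last entry is named after a precursor of the nuclear factor Y regulator miR169. For comparison, the median over the 96 entries was 0.551 and zma-miR164e-5p stood at 0.806. zma-miR164e-5p was not lowest in CK3. The entries outside the family were, like zma-miR164a-5p, and nothing is read from this because they were picked for likeness to it. For instance, zma-miR159a-3p was at 327 units in CK1 and 175 in CK3, against 253 in T1 and 298 in T3.

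Most like zma-miR164e-5p was osa-MIR6256-p5_2ss10GC17TA at 0.137, an entry with a rice precursor name, at 19.1 units in CK1 and 23.9 in CK3, against 51.5 in T1 and 60.6 in T3. The next were farther off, osa-MIR5079a-p3_2ss1AT21CT at 0.369 and zma-miR166a-5p_L-1R+1, from the HD-ZIP III regulator family miR166, at 0.375. The median over the 96 entries was 0.843. The likeness rests on 4 libraries, and the common form of miR164 itself was farther from zma-miR164e-5p than all 3.

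**Figure D4:**
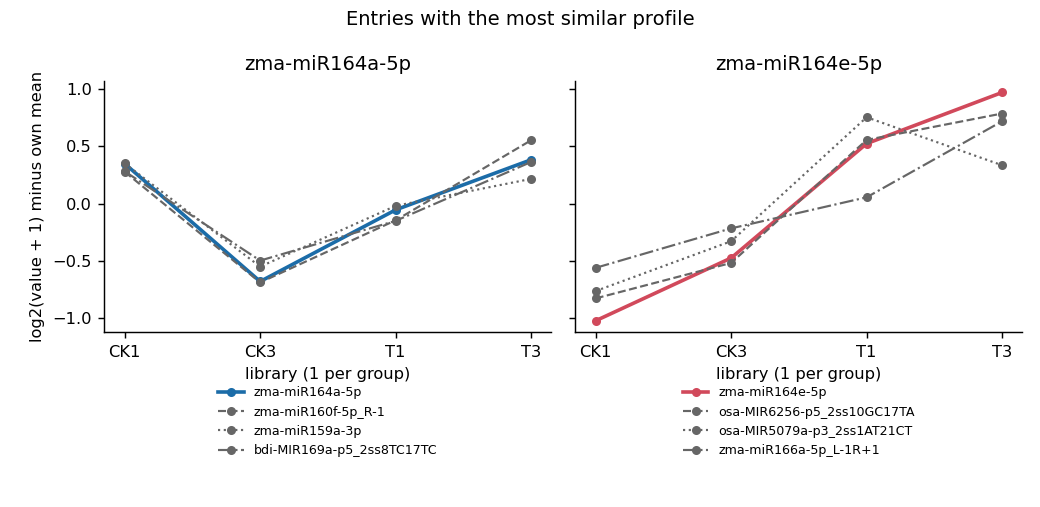
Profiles of zma-miR164a-5p (left) and zma-miR164e-5p (right) with the 3 most similar entries outside the family, as log2(value + 1) minus each entry's own mean over the 4 libraries; lines only join points of 1 entry. The left profiles dip in CK3, and in the right ones both fed libraries lie above both unfed ones. Nothing is read from this, because the entries were picked for likeness and zma-miR164e-5p as higher in both fed libraries.

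Other families with a part in leaf development (miR156, miR159, miR166, miR169, miR171, miR172, miR319, miR396 and miR529) were compared by their totals. In T3 against CK3, 3 of these 9 were more than 2-fold higher and 0 lower, against 44.7% of the 47 families compared: miR166 with a log2 difference of 1.02, miR319, the regulator of TCP factors, with 2.02 on few reads, and the AP2 regulator miR172, listed at 0 in CK3. The median over the 9 families was 0.37, equal to that over the 47 families compared. In T3 against CK1 none of the 9 was past 2-fold, against 25.5% of families, with miR166 at 0.42, miR319 at 0.71 and miR172 at 0.32. In T1 against CK1 none of the 9 was past 2-fold either, against 19.6% of 46 families, with a median of 0.15 beside 0.04 over all of them.

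Of the families that act on auxin signalling (miR160, miR167, miR390 and miR393), 1 of 4 was past 2-fold in T3 against CK3, beside the same 44.7% of families. The median over the 4 was 0.08, against 0.37 over all families compared. The family past 2-fold was miR160, at 300 units in CK3 and 696 in T3, a log2 difference of 1.21, and it stood at 783 units in CK1. As with the common form of miR164, its lowest library was CK3. The level of miR160 in T3 was below that in CK1, whereas the common form was at 362 units in T3 and 354 in CK1. In T3 against CK1 0 of these 4 were past 2-fold. In T1 against CK1 0 of them were, and the median was -0.15, against 0.04 over all families.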

How the data were processed

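Small RNA libraries were made with the TruSeq Small RNA kit from Trizol-extracted leaf RNA and sequenced on an Illumina HiSeq instrument, per the labels' protocols, which speak of more libraries than the 4 analysed here. Per the file headers, the values the authors deposited are a normalized signal per microRNA sequence. How they were scaled, which aligner and caller made them and on which genome build is not given in the sources used here. Rows of 1 sequence were used once and equal entries merged. The value of 1 read was the largest step that divided 85% or more of the low values without remainder, within 0.02 of a read. In the 4 libraries 90.0% to 93.6% of values above 0 were whole, so no count model was used. Differences used a pseudocount of 1, and a 2-fold rule a minimum of 10 units. Ratio intervals are exact conditional binomial, and intervals of shares exact Clopper-Pearson, at 95%. With 1 library per group no test was made. The members and lists were chosen with earlier results of these data known. The entries named were all miR164 sequences, the 3 profiles most like each of 2 forms, and listed families past 2-fold. The sequence of 1 member is not reported here. The steps were tested on simulated data. Python 3.11.15, pandas 2.3.3, NumPy 2.4.6, SciPy 1.17.1 and Matplotlib 3.10.9 were used.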

Additional observations from a re-analysis of the deposited data

Results flagged for a closer look

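The family total, zma-miR164a-5p and zma-miR164f-5p were lower in T1 than in CK1 and higher in T3 than in CK3. The difference in log2(value + 1) at day 3 exceeded that at day 1 by 1.33 for the family total, by 1.46 for zma-miR164a-5p and by 1.75 for zma-miR164f-5p. With 1 library per group the difference between days was not tested, and it includes that between CK1 and CK3, where the common form stood at -1.03.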

How the results depend on the processing

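Of 132 recomputed values, 106 stayed within the counting interval of the reported one (for counts of entries, within 1.5 times) or, in the 6 of the 24-nt form, had no interval to leave. The sign changed in 8 of the others, 1 of them past 2-fold as reported, namely zma-miR164f-5p in T3 minus CK3. For T1 with CK3 in place of CK1 the log2 difference of the family total was 0.67 and that of zma-miR164a-5p 0.62, with zma-miR164f-5p at 0.63 and zma-miR164b-3p_L+2 at 0.22, and with the mean of both unfed libraries they were 0.12 and 0.021. For T3 with CK1 in place of CK3 they were 0.12 and 0.034, with zma-miR164f-5p at -0.11, and with the mean 0.51 and 0.46. Equal totals gave the family total 1.27 for T3 minus CK3, 0.88 for T1 minus CK3 and -1.16 for CK3 minus CK1, while the median of all entries went from 0.09 to 0.31, from 0.02 to 0.28 and from 0.15 to -0.12. Median-of-ratios scaling put the family total of T3 minus CK3 at 0.997, just under 2-fold, and a pseudocount of 5 did so for zma-miR164f-5p at 0.996. Without the common form the family total was 0.12 for T1 minus CK1, 0.39 for T3 minus CK1, -0.65 for CK3 minus CK1 and 0.26 for T3 minus T1. zma-miR164e-5p lay between 0.998 and 1.58 at day 1 and between 1.29 and 1.99 at day 3 over 6 alternatives each. The 24-nt form, listed at 0 in CK3, went from 4.47 with a pseudocount of 0.5 to 1.64 with one of 5. With no minimum value, 134 entries were past 2-fold in T1 and CK1, 160 in T3 and CK3, 165 in T1 and CK3, 124 in T3 and CK1, 128 in CK3 and CK1 and 99 in T3 and T1, the last 14 with a pseudocount of 5. The comparison of unmerged sequences was added after the data were seen. No paired analysis was possible because each group has 1 library and no test was made.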
